A study of Homo sapiens with 8 samples.

Results

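The transcripts of the enzymes that make serine, glycine, asparagine, proline and cysteine, and of the mitochondrial and cytosolic enzymes that pass one-carbon units to folate, were followed after BEX2 knockdown in a cholangiocarcinoma line. The group was taken by gene name and held PHGDH, PSAT1, PSPH, SHMT1, SHMT2, ASNS, MTHFD2, ALDH1L2, PYCR1 and CTH, which are 10 of the 34809 gene names on the array. All 10 had a probe, and 9 of them were among the 20343 genes tested, because PSAT1 did not rise well above background anywhere. In the BEX2 knockdown arrays 6 of the 9 tested enzymes were lower (6.24% of all genes tested were), with the largest falls in PHGDH (log2 fold change -2.001) and ASNS (-1.85), and SHMT1 was higher (1.05), while SHMT2 (-0.46) and PYCR1 (-0.51) did not pass the test. The 6 include PSPH, whose probe may read a pseudogene copy. With shNontarget as the only control, PHGDH alone passed, and 347 of all 20343 genes did.

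HuCCT1, an established human intrahepatic cholangiocarcinoma cell line, had been given 1 of 4 short hairpin RNA (shRNA) vectors: shControl or shNontarget, which the labels call control, or shBEX2-1 or shBEX2-2, which they call BEX2 knock down. Total RNA of each vector was hybridized to 2 arrays, giving 4 control and 4 knockdown arrays, and the comparison asked which transcripts differ when BEX2 is reduced. The study made its sublines with retroviral vectors and describes as control a hairpin against luciferase, without saying which control vector that was. The target sequences its methods give for the pair of BEX2 hairpins lie on opposite strands of nearly the same site, so the sublines share a target. Neither the labels nor the methods say whether replicates came from separate cultures, so p-values measure the spread between these arrays, which may be technical.

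PHGDH, PSAT1 and PSPH convert a glycolytic intermediate to serine in consecutive steps. SHMT1 in the cytosol and SHMT2 in mitochondria then split serine into glycine and a one-carbon unit carried by folate, which MTHFD2 and ALDH1L2 process further in mitochondria, and the carried carbon is used for purines, thymidylate and methionine. Many of these genes, and ASNS in particular, are known targets of ATF4, the transcription factor of the amino acid and integrated stress response.

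Because the data bear on genes that moved together, the 250 bases before the start site are shown for the pair of enzymes with the largest falls and for the enzyme that rose, as RefSeq gives them for GRCh38.p14. ASNS lies at chr7:97872409-97872658 on the minus strand, PHGDH at chr1:119711684-119711933 on the plus strand and SHMT1 at chr17:18363551-18363800 on the minus strand, each written 5′ to 3′ along the gene. Capitals mark TGATGNAA, the letters of an amino acid response element, which was searched on both strands.
ASNS: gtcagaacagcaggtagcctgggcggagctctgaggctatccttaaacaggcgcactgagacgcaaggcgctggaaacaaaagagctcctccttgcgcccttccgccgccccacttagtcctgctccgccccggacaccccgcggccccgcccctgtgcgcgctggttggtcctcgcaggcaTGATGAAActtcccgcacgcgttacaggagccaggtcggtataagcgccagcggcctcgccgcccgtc
PHGDH: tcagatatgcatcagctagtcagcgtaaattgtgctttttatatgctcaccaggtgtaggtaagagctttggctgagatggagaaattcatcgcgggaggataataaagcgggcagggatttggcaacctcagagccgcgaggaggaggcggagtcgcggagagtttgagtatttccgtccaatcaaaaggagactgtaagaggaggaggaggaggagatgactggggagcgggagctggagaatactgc
SHMT1: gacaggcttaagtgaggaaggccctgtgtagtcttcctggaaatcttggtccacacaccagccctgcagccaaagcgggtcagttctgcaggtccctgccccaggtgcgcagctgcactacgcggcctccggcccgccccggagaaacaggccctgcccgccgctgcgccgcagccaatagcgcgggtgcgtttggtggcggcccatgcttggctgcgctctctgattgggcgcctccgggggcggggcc

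The ASNS window shown held TGATGAAA 68 to 61 bases before the start site (chr7:97872469-97872476), and the windows of PHGDH and SHMT1 held no match. A second ASNS entry, with its 250 bases at chr7:97872166-97872415, held no match. In the full windows of 300 bases, 6 of the 10 enzymes had 1 or more entries, and a match was found in 1 of the 6. Those 6 enzymes had 7 entries, and the ASNS entry shown was the only one with a match. Counted by entry, 3.62% of all promoters of that length held the letters (1270 of 35116). A match describes the letters and not a bound site.

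The 8 arrays shared 1 slide and 1 scan. Row 1 of the slide held every control array and row 2 every knockdown array, so position and group cannot be told apart. Of 58717 spots that were not controls, 59.8% to 64.6% were well above background, none was saturated, and the 75th percentile of the intensity ran from 667 to 838 on control and from 441 to 631 on knockdown arrays. Levels below are log2 intensities relative to that percentile of the same array, so that a level of 0 is the percentile itself, and levels of different probes are not comparable. The shNontarget pair stood apart: between its replicates 7084 genes (34.8%) were more than 1 log2 unit apart, against 111 to 349 in the other pairs. Among the 9 tested enzymes only MTHFD2 differed by that much, by 1.09, and in 8 of the 9 replicate 1 of shNontarget was the higher array, ALDH1L2 being the exception. All 7 markers of biliary and other epithelial cells were well above background on all 8 arrays, whereas 4 of 6 hepatocyte markers (ALB among them), 3 of 5 fibroblast, 2 of 4 endothelial and 2 of 5 leukocyte markers reached that on none. The summed level of the epithelial list, in multiples of the 75th percentile, was 633 to 895 on control and 854 to 1023 on knockdown arrays, and that of the leukocyte list 0.389 to 0.546 and 0.581 to 0.652. KRT8, a keratin, and CD14, a monocyte antigen, were the markers that passed the limma test, both higher in knockdown, by 1.02 and 0.54, and named after their values were seen; their part in the results below was not tested.

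BEX2, a small adaptor protein of the brain-expressed X-linked family, was checked first. Its level was -3.36 and -3.91 with shControl and -2.70 and -3.77 with shNontarget, against -5.21 and -5.54 with shBEX2-1 and -4.92 and -4.60 with shBEX2-2. No knockdown array reached a control array, and BEX2 fell by 1.63 on the log2 scale (SE 0.32, limma with Benjamini-Hochberg adjustment over 20343 genes, adjusted p = 0.0116). The probe was well above background on 6 of the 8 arrays and on neither shBEX2-1 array, so that its shBEX2-1 level is only an upper bound. Taken against the lowest signal well above background on those arrays, BEX2 was at least 3.20-fold lower with shBEX2-1 than the control mean.

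**Figure D1:**
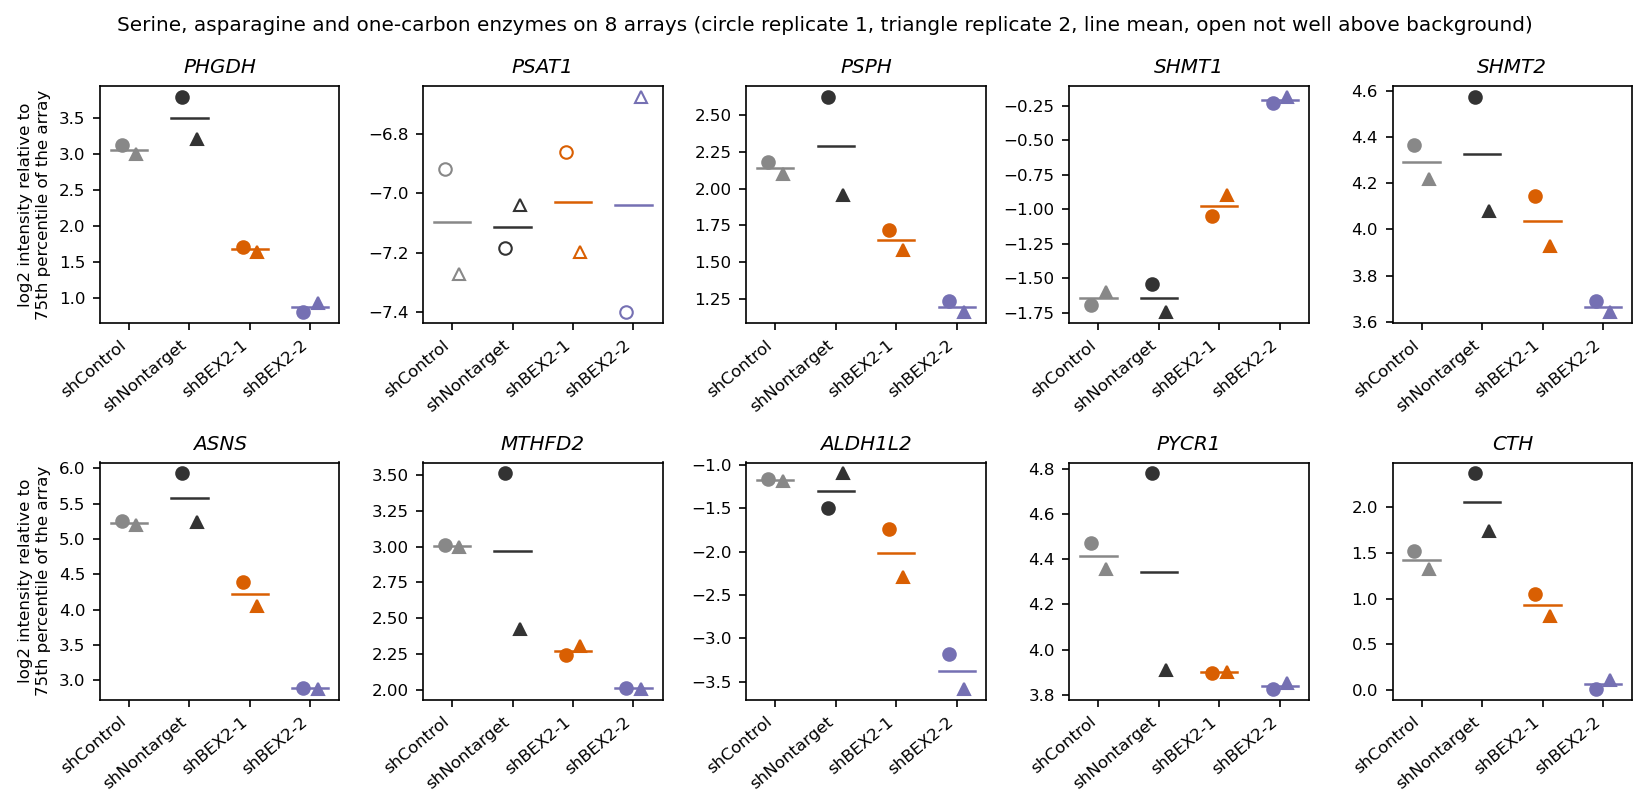
Log2 intensity of each enzyme's brightest probe relative to the 75th percentile of the array, for 4 vectors with 2 replicates each (circle, replicate 1; triangle, replicate 2; line, mean; open symbol, not well above background). Each panel has its own scale. The knockdown arrays lie below all control arrays in 7 panels and above them in the SHMT1 panel, they meet the control arrays in the SHMT2 panel, and PSAT1 stays at background.

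In the serine pathway, PHGDH, the dehydrogenase of the committed first step, showed the lowest adjusted p of the group. The files place its probe at chr1:120285529-120285588 of hg19 on the plus strand, and no exon annotation of that build was used here. Its level was 3.12 and 2.999 with shControl and 3.79 and 3.21 with shNontarget. It was 1.71 and 1.65 with shBEX2-1 and 0.81 and 0.94 with shBEX2-2. The 4 knockdown arrays lay well below the 4 control arrays and shBEX2-2 lay below shBEX2-1. PHGDH fell by 2.00 on the log2 scale (95% confidence interval -2.58 to -1.42, SE 0.26, limma, adjusted p = 0.00225), from a mean level of 3.28 ± 0.35 to 1.28 ± 0.47 (SD, n = 4 in each group). Across all 20343 genes 12.9% passed the same test, 6.67% higher and 6.24% lower.

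PSAT1, the aminotransferase of the second step, stayed at background with every vector, and its level ran from -7.40 to -6.67 over the 8 arrays. No fold was therefore given. PSPH, the phosphatase of the last step, had levels of 2.18 and 2.10 with shControl and 2.63 and 1.96 with shNontarget, against 1.72 and 1.58 with shBEX2-1 and 1.24 and 1.16 with shBEX2-2. The groups did not overlap, and PSPH fell by 0.79 (SE 0.19, limma, adjusted p = 0.0247), a 1.73-fold fall. The deposited files place the PSPH probe at chr7:55841271-55841330 of hg19 on the plus strand, and RefSeq lists a pseudogene copy, PSPHP1, on the same chromosome, so which copy the probe reads is uncertain. RefSeq also lists pseudogenes of PSAT1, SHMT1, ASNS and MTHFD2, and whether their probes read them was not tested.

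SHMT1 and SHMT2, which split serine, differed in direction and in call. The brighter of the SHMT1 probes lies at chr17:18231526-18231585 and the other at chr17:18236513-18236572 of hg19, both on the minus strand. SHMT1, the cytosolic hydroxymethyltransferase, had levels of -1.69 and -1.60 with shControl and -1.54 and -1.74 with shNontarget, and rose to -1.05 and -0.90 with shBEX2-1 and to -0.23 and -0.19 with shBEX2-2. Every knockdown array was above every control array, with shBEX2-2 the higher subline. The rise was 1.05 on the log2 scale (95% confidence interval 0.57 to 1.53, SE 0.21, limma, adjusted p = 0.0134), and the second SHMT1 probe ran the same way, from -2.95 to -2.42 on control and from -2.04 to -1.30 on knockdown arrays. SHMT2, the mitochondrial form, had levels of 4.36, 4.22, 4.57 and 4.08 on the control arrays and of 4.14, 3.93, 3.69 and 3.64 on the knockdown arrays. One shBEX2-1 array lay above a shNontarget array, so the groups met, and the difference of -0.46 (95% confidence interval -0.83 to -0.09) did not pass the test (limma, adjusted p = 0.106, exact permutation test, two-sided p = 0.0571).

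ASNS makes asparagine from aspartate and glutamine, and its probe lies at chr7:97481461-97481520 of hg19 on the minus strand. It had levels of 5.25 and 5.20 with shControl and 5.93 and 5.24 with shNontarget. It was 4.39 and 4.05 with shBEX2-1 and 2.89 and 2.88 with shBEX2-2. The knockdown arrays lay below all control arrays and the sublines lay apart from each other. ASNS fell by 1.85 (95% confidence interval -2.68 to -1.03, SE 0.36, limma, adjusted p = 0.0119), from 5.405 ± 0.35 to 3.55 ± 0.78 (SD, n = 4 in each group). Its highest control value, on shNontarget replicate 1, stood apart from the other 3.

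MTHFD2 and ALDH1L2, the mitochondrial folate enzymes of the group besides SHMT2, fell. MTHFD2, a dehydrogenase and cyclohydrolase of mitochondrial folate, had levels of 3.01 and 2.999 with shControl, 3.51 and 2.42 with shNontarget, 2.24 and 2.31 with shBEX2-1 and 2.02 and 2.01 with shBEX2-2. The lower shNontarget array lay just above the knockdown arrays, and MTHFD2 fell by 0.84 (SE 0.21, limma, adjusted p = 0.0333). ALDH1L2, which oxidizes formyl-tetrahydrofolate, had levels of -1.17, -1.19, -1.50 and -1.10 on the control arrays, -1.74 and -2.29 with shBEX2-1 and -3.18 and -3.58 with shBEX2-2. The groups did not overlap, shBEX2-2 was again the lower subline, and ALDH1L2 fell by 1.46 (SE 0.36, limma, adjusted p = 0.0313).

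PYCR1, the last enzyme of mitochondrial proline synthesis, had levels of 4.47, 4.36, 4.78 and 3.91 on the control arrays and of 3.90, 3.90, 3.83 and 3.85 on the knockdown arrays. The knockdown arrays lay close together and below all control arrays, but shNontarget replicate 2 lay next to them, and the difference of -0.51 (95% confidence interval -0.92 to -0.10) did not pass the test (limma, adjusted p = 0.101). The second PYCR1 probe ran from -2.98 to -1.89 on control and from -3.54 to -3.07 on knockdown arrays. CTH, which releases cysteine from cystathionine in transsulfuration, had levels of 1.53 and 1.33 with shControl, 2.37 and 1.74 with shNontarget, 1.05 and 0.81 with shBEX2-1 and 0.01 and 0.11 with shBEX2-2. The groups did not overlap, and CTH fell by 1.24 (SE 0.29, limma, adjusted p = 0.0249).

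Counted together, 7 of the 9 tested enzymes passed the test (12.9% of all genes did), 6 of them lower and 1 higher, and the median log2 fold change of the 9 was -0.84 against 0.03 over all genes. The 6 include PSPH, for which the copy that the probe reads is uncertain. In 8 of the 9 the control and knockdown arrays did not overlap, which held for 22.1% of all genes. Each of those 8 therefore had the smallest p that an exact permutation test of 4 against 4 arrays can give, 0.0286. That p follows from the lack of overlap and adds nothing to it. The test also treats all arrays as exchangeable, although each vector gave a pair of them. With shNontarget as the only control, only PHGDH passed (limma, adjusted p = 0.0389), although all 9 log2 fold changes kept their sign, and ASNS had a limma adjusted p of 0.0935. Of all 20343 genes 347 passed there. The count was 3 without shControl replicate 1 and 4 without its replicate 2, where 1334 and 1395 of all genes passed. It was 3 without replicate 1 or 2 of shBEX2-2 (1237 or 1383 of all genes). PHGDH, ASNS and SHMT1 were among those passing in each, and 2627 of all genes passed with every array.

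The sublines were then compared with both control vectors in 1 limma model of the 4 vectors. With shBEX2-1, 3 of the 9 enzymes passed (7.02% of all genes): PHGDH fell by 1.60, ASNS fell by 1.19 and SHMT1 rose by 0.67 on the log2 scale. That SHMT1 rise depends on the scaling of the arrays, since its unscaled intensities with shBEX2-1 lay within the control range. With shBEX2-2, 6 of the 9 passed (9.71% of all genes). The log2 fold change there was -2.52 for ASNS, -2.40 for PHGDH, -2.14 for ALDH1L2, -1.68 for CTH, -1.02 for PSPH and 1.43 for SHMT1. The sublines share the 4 control arrays, so these are not separate lines of evidence. MTHFD2, at -0.71 and -0.97, and PYCR1, at -0.48 and -0.54, passed in neither subline, and SHMT2 was at -0.27 and -0.64. In this model, leaving out any 1 array leaves its vector 1 array. Both counts then fell without a shControl or knockdown array and rose without either shNontarget array. The number of all genes passing moved the same way, so the counts depend on single arrays.

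**Figure D2:**
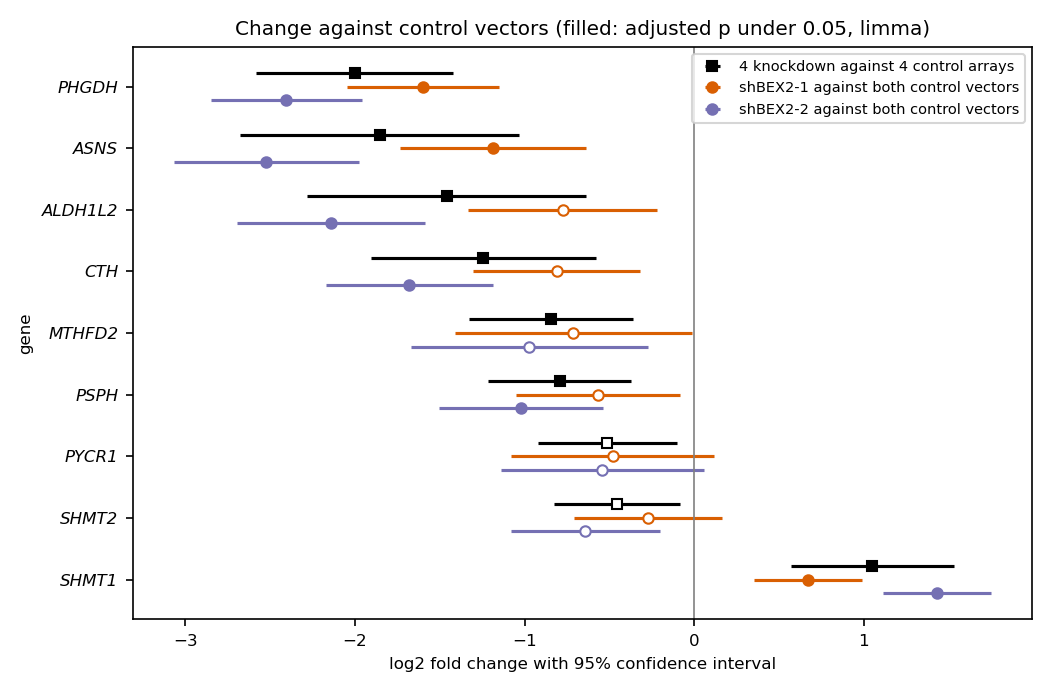
Log2 fold change with its 95% confidence interval for the 9 tested enzymes, for the 4 knockdown against the 4 control arrays (squares) and for each subline against both control vectors (circles), filled where the limma adjusted p passed the threshold of 0.05. For ASNS, shBEX2-1 lies at -1.19 and shBEX2-2 at -2.52, and SHMT1 is the 1 enzyme to the right of 0.

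Set directly against shBEX2-1, shBEX2-2 was lower in 8 of the 9 enzymes and higher in SHMT1, which is the direction of its larger differences from control. The difference was -1.34 for ASNS (95% confidence interval -1.97 to -0.70, limma, adjusted p = 0.181) and -1.37 for ALDH1L2 (adjusted p = 0.178). None of the 9 enzymes passed the adjusted test (0.00983% of all genes did, which is 2 genes). An unadjusted limma p under 0.05 was found for 5 of the 9 enzymes (PHGDH, SHMT1, ASNS, ALDH1L2 and CTH) and for 1486 of all genes. For BEX2 itself the measured mean was higher in shBEX2-2, by 0.61 (95% confidence interval -0.42 to 1.64), which did not pass the test and has the bound in shBEX2-1 on its other side. Against both control vectors BEX2 passed with shBEX2-1 (limma, adjusted p = 0.0337) and was at -1.32 with shBEX2-2 (adjusted p = 0.0815). The counts in this 4-vector model rest on the shNontarget pair, since without its replicate 1 or its replicate 2 the direct comparison of the sublines called 8 of the 9 enzymes and 2958 or 3026 of all genes.

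The control vectors were compared in the same way to give the background between vectors. None of the 9 enzymes passed in shNontarget against shControl (0% of all genes), and the differences ran from -0.12 for ALDH1L2 to 0.63 for CTH. At an unadjusted limma p under 0.05 there were 1553 genes, with CTH the 1 enzyme among them. Without replicate 1 or 2 of shNontarget, which leaves that vector 1 array, 2 or 6 of the 9 enzymes passed, beside 9221 or 9453 of all 20343 genes. The 95% confidence interval was 0.06 to 1.197 for CTH and -0.08 to 0.96 for PHGDH, and the missed threshold does not show that the control vectors were alike.

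Across the 8 arrays the enzymes other than SHMT1 ran together, with Pearson correlations of 0.58 to 0.98 (median 0.90) over their 28 pairs, and SHMT1 ran opposite to them, from -0.98 to -0.64. These describe 8 arrays of 2 groups between which most of the enzymes differ. Of the 20343 genes tested, the 5 whose levels ran most like the median of the enzymes were C1orf123, C6orf48, PQBP1, DDIT4 and ZFAND1 (each with r of 0.99 over 8 arrays). The gene most like ASNS was ATF4 (r = 0.99), followed by FAM43A, BCAT1, MYL5 and CSRP2BP.

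**Figure D3:**
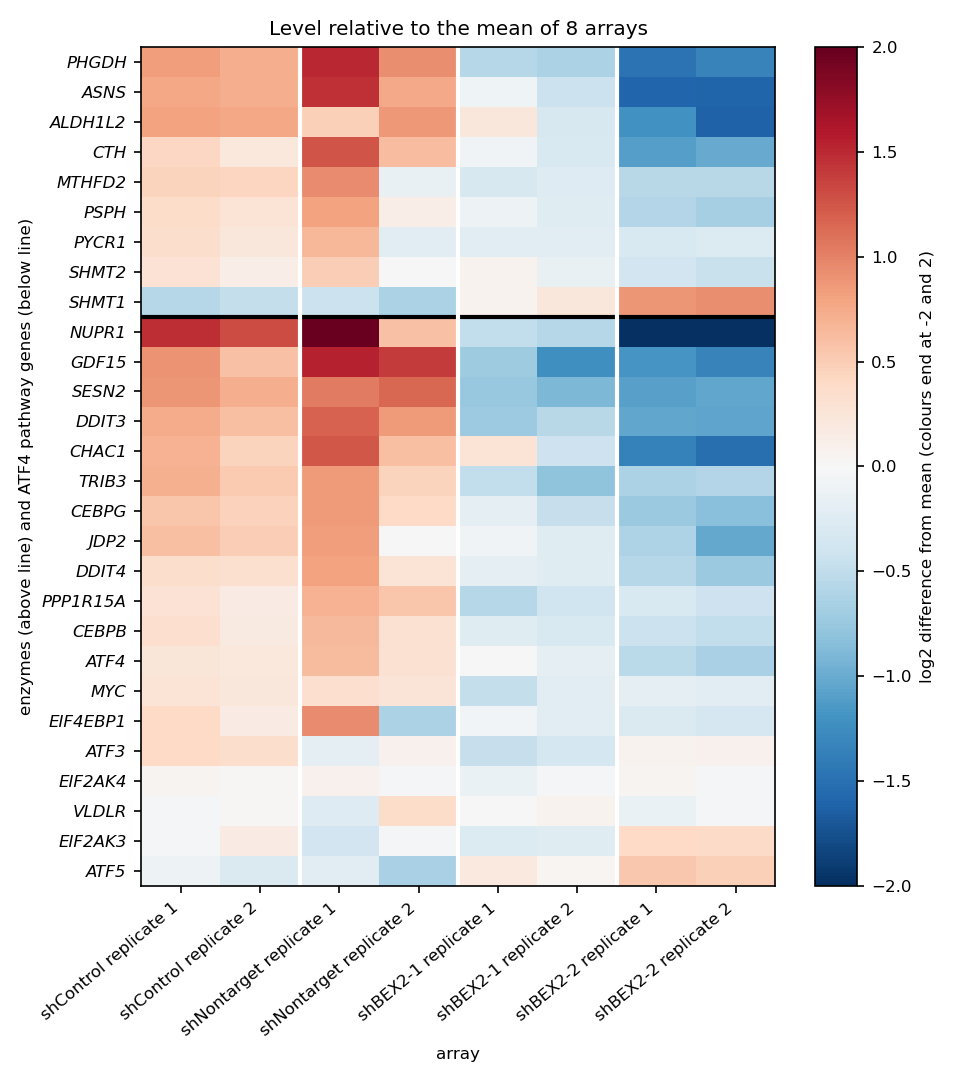
Log2 level of the 9 tested enzymes (above the black line) and of 19 tested ATF4 pathway genes (below it) relative to each gene's mean over the 8 arrays, red above and blue below the mean, with colours ending at -2 and 2. Most enzymes and ATF4 pathway genes are red on the 4 control arrays and blue on the knockdown arrays, and SHMT1 and ATF5 run the other way. In most the blue is deeper with shBEX2-2, but ATF3, PPP1R15A, MYC, TRIB3, EIF2AK4 and EIF2AK3 were lower with shBEX2-1. EIF2AK3 lay above the control mean with shBEX2-2.

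Most of the tested ATF4 pathway regulators and reporters fell. Of its 21 genes 19 were tested, 13 fell and 1 rose, with a median log2 fold change of -0.84, against 0.03 over all genes, of which 6.24% were lower and 6.67% higher by the same test. ATF4 itself had levels of 7.07, 7.04, 7.47 and 7.14 on the control arrays and 6.82, 6.66, 6.29 and 6.18 on the knockdown arrays, and fell by 0.69 (SE 0.19, limma, adjusted p = 0.0472). That value lies close to the threshold of 0.05. In the alternatives the falling genes of this list were only counted, so whether ATF4 still passed there is not given. NUPR1, a stress-induced chromatin protein, fell by 2.67 and GDF15, a secreted stress cytokine, fell by 2.22. DDIT3, the transcription factor CHOP, fell by 1.68, CHAC1, which degrades glutathione, fell by 1.496, and TRIB3, a pseudokinase induced by ATF4, fell by 1.26. ATF5, a related transcription factor, was the gene that rose, by 0.63 (limma, adjusted p = 0.0455), and it did not pass when any 1 of the shControl, shBEX2-1 or shBEX2-2 arrays was left out, with shNontarget as the only control, under quantile normalization or without the filter on dim probes. With shNontarget as the only control 5 of the list fell, where 347 of all genes passed. Without shBEX2-2 replicate 1 there were 8, where 1237 of all genes passed.

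The rest of the folate cycle was mixed. Of 18 tested genes 4 rose and 4 fell, with a median of 0.06, where 6.67% of all genes were higher and 6.24% lower. TYMS, thymidylate synthase, rose by 1.93 (SE 0.24, limma, adjusted p = 0.00204). MTHFD1L, the mitochondrial formyl-tetrahydrofolate synthetase, fell by 1.33 (SE 0.12, limma, adjusted p = 0.000722). The cytosolic trifunctional enzyme MTHFD1 and the folate carrier SLC19A1 also rose, by 0.54 and 0.66, and the cytosolic relative of ALDH1L2, ALDH1L1, and the folate transporter SLC46A1 also fell, by 0.54 and 0.89; these 4 were named after their values were seen. With shNontarget as the only control 2 rose and 1 fell, and 347 of all 20343 genes passed. Without shBEX2-2 replicate 1 there were 2 in each direction, 2 rose without shControl replicate 2, shBEX2-1 replicate 1 or shBEX2-2 replicate 2, and 2 fell without shControl replicate 1. In these fits with 1 array left out 1237 to 1526 of all genes passed, against 2627 with every array.

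The neighbouring amino acid pathways were first tested against both control vectors, and the shares passing lay on either side of the share over all genes. Over all genes 12.9% passed that test, and 27.7% had an unadjusted limma p under 0.05. None of the 10 tested genes of serine and glycine metabolism outside the group passed the limma test, with a median log2 fold change of -0.09, and none had an unadjusted p under 0.05. None of the 10 of proline, ornithine and glutamate metabolism passed either, with a median of 0.19, and 5 of them had an unadjusted limma p under 0.05. Among 10 genes of asparagine, aspartate and alanine metabolism only GPT2, the mitochondrial alanine aminotransferase, passed, and it fell by 1.30 (SE 0.13, limma, adjusted p = 0.00104). Of these 10, 4 had an unadjusted limma p under 0.05. Among 16 of methionine, transsulfuration and glutathione metabolism, GSR, glutathione reductase, rose by 0.57, and AHCYL2, a relative of adenosylhomocysteinase, and ETHE1, a sulfur dioxygenase, fell by 0.62 and 0.51. Of these 16, 7 had an unadjusted limma p under 0.05. With shNontarget as the only control none of these 16 passed, and 347 of all 20343 genes did. When any 1 of the shControl, shBEX2-1 or shBEX2-2 arrays was left out, 0 or 1 of the 16 fell and 0 or 1 rose. In those fits 1237 to 1697 of all genes passed. Without shNontarget replicate 1, 2 fell and 3 rose (4702 of all genes passed), and without its replicate 2, 6 fell and 1 rose (4285 of all genes). In the asparagine list 2 also rose without shNontarget replicate 1, and 3 fell without its replicate 2. In the proline list 1 fell and 1 rose without shNontarget replicate 1, and 2 rose without its replicate 2. A fall in 1 gene of the serine list also passed without shNontarget replicate 1. By the mean of a gene's probes 1 of the proline list fell, where 2570 of all genes passed. With shControl as the only control 6810 of all genes passed. Of the 16, 6 fell and 4 rose there, and of the 10 in the asparagine list 3 fell and 4 rose. CBS, which makes the cystathionine that CTH cleaves, stayed at background on all 8 arrays.

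**Figure D4:**
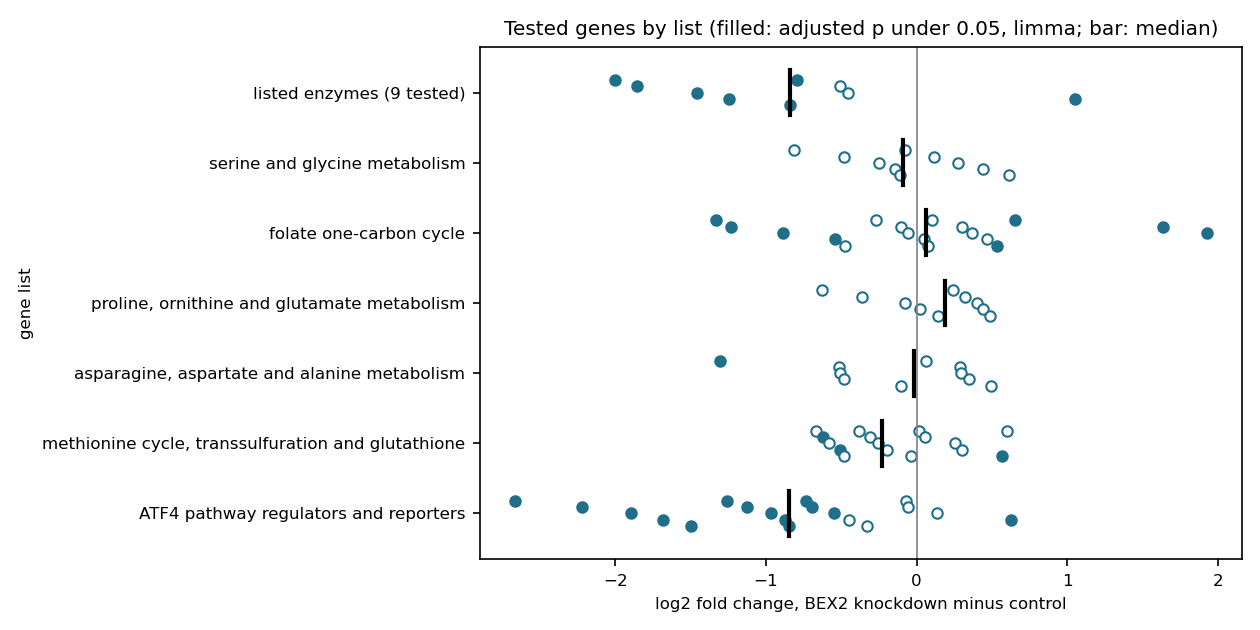
Log2 fold change (BEX2 knockdown minus control) of every tested gene of the enzyme group and of 6 pathway lists, filled where the limma adjusted p passed the threshold of 0.05, with a bar at the median. The medians of the enzymes and of the ATF4 pathway list lie at -0.84, and those of the other lists between -0.23 and 0.19.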

How the data were processed

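RNA of 8 HuCCT1 samples was measured on 1-colour Agilent arrays, 1 array per sample. The authors labelled total RNA with Cy3 and read the slide with Agilent Feature Extraction 10.7.3.1 (submitters' processing notes), and the deposited processed intensity has had background removed and spatial trends corrected on each array, with a surrogate in place of low values. The deposited series table differed from these intensities by at most 0.497%. The number of arrays limits the precision.

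From these files, control spots and outlier spots were left out, spots of a probe were averaged, and log2 intensity minus the 75th percentile of the array was used. A probe counted as well above background where more than 50% of its spots were; genes reaching this on at least 4 arrays were tested, by their brightest probe. Tests were limma 3.58.1 in R 4.3.3 (lmFit, eBayes with trend, Benjamini-Hochberg, threshold 0.05) on the 2 groups or on the 4 vectors, exact permutation tests for single values, and checks on simulated data. Arrays were grouped by their labels, and none was left out.

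The members, lists and tests were chosen with earlier results of these data known. Named genes are all members, BEX2, the 2 largest rises and falls among those passing in each list, ATF4, DDIT3, TRIB3 and CHAC1, and the 5 genes running most like the members' median or ASNS. Alternatives changed normalization, background correction, filter, probe rule, control vector, test, block and arrays. Some genes that this rule names are not reported here.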

Additional observations from a re-analysis of the deposited data

Results flagged for a closer look

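Among the 4 control arrays, the ASNS level on shNontarget replicate 1 stood apart. It was 5.93 on the log2 scale, and the other 3 control arrays lay between 5.20 and 5.25, so that the gap to the nearest was a share of 0.935 of the whole range, above Dixon's 95% critical value for 4 samples. Each of the 9 tested enzymes was examined in the control and in the knockdown arrays, 18 groups in all, and chance gives such a value in about 5% of groups. Without this array ASNS fell by 1.68 on the log2 scale and passed the limma test.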

How the results depend on the processing

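The number of the 9 enzymes passing in knockdown against control was 7. It was 1 with shNontarget as the only control, 3 by the methods' t-test with Benjamini-Hochberg adjustment, 4 by rank product and 3 to 9 with 1 array left out, and in the other alternatives it stayed within 1.5 times. Over 20 alternatives PHGDH passed in 20, ASNS in 19, SHMT1 in 18, CTH in 15, PSPH and ALDH1L2 in 13, MTHFD2 in 10, PYCR1 in 3 and SHMT2 in 2, and no direction reversed. The count for shBEX2-1, which was 3, was 1 without the filter on dim probes and 0 to 9 with 1 array left out. For shBEX2-2, where it was 6, leaving out 1 array gave 0 to 9. For shNontarget against shControl it went from 0 to between 0 and 6, and for shBEX2-2 against shBEX2-1 from 0 to 1 under quantile normalization and to between 0 and 8 with 1 array left out. The high ends came without either shNontarget array, where many more of all genes passed too. Where the shBEX2-1 count was 0, few or none of all genes passed. A vector left with a lone array was assumed to vary like the other vectors. Over all genes 2627 passed in knockdown against control, 347 with shNontarget and 6810 with shControl as the only control. With 1 array left out 1237 to 4702 did. The cause was not tested. With the replicate number as a replicate block the counts were 7, 2, 6, 0 and 0 in the same order, and the numbers were not taken to pair the arrays: the replicate differences correlated above 0.1 in 5 of 6 vector pairs (up to 0.26) and at -0.064 in shNontarget with shBEX2-1, and the labels do not say what a number marks. The ATF4 pathway list had 8 to 14 genes lower with 1 array left out, and the folate list 2 to 5 in each direction, an alternative added after seeing the data.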
